A study of Mus musculus with 6 samples.

Results

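The immunoglobulin gene segments were taken as the rows of the gene table with a biotype of V, D, J or constant immunoglobulin gene, which gave 264 of 54532 genes. They comprised 218 V segments (113 Ighv, 102 Igkv and 3 Iglv), 19 D segments, 14 J segments and 13 constant genes. A read was found for 231 of the 264 in at least 1 library, and 33 had none. The 161 immunoglobulin pseudogenes were not among the members.

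RNA of bone marrow (BM) cells from C57BL/6 mice was sequenced at post-transplantation day 100, in 3 libraries labelled Phf6 wild type (WT 1, WT 2 and WT 3) and 3 labelled Phf6 knockout (KO 1, KO 2 and KO 3). Both groups carried JAK3 M511I, an activating form of the Janus kinase JAK3, delivered with GFP by retrovirus into lineage-negative BM cells that were then transplanted, to model T-cell acute lymphoblastic leukemia (T-ALL). The KO donors were Vav1-Cre;Phf6 fl/y males, in which the Vav1 promoter drives Cre in hematopoietic cells, and the WT donors were Phf6 fl/y males without Cre. A recipient also holds its own BM cells, and the sources used here do not say whether cells were sorted before RNA extraction. The paper calls the profiled cells T-ALL cells and reports checks of single genes in GFP-positive T-ALL cells. The genotype labels name Phf6, Phf7 and Phf8 in turn within each group and were read as Phf6. The labels do not tie the libraries to separate mice, so p-values measure only the spread between these libraries.

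The RNA level of Phf6 did not separate the groups (FPKM 3.67 to 8.02 in WT and 5.11 to 6.73 in KO, where FPKM is fragments scaled to gene length and library size), so directions rest on the labels. In the paper's mice the loxP sites flank exons 4 to 5 of Phf6. A value for the whole gene does not show the loss of those exons alone. The libraries held 13015823 to 18235095 reads recovered from FPKM. WT 2 stood apart, with genes under 1000 bases taking 17.1% of its reads compared with 3.11% to 5.01% in the other 5 libraries, and totals are therefore also given without it.

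An immunoglobulin is built from paired heavy and light chains. In developing B cells the RAG recombinase joins a V, a D and a J segment at the heavy chain locus (Igh), and a V and a J segment at the kappa (Igk) or lambda (Igl) locus, and the joined exon is spliced to a constant gene that sets the isotype. Mature B cells start with IgM and IgD and can switch to IgG, IgE or IgA, plasma cells transcribe the chosen segments at very high levels, and T-lineage cells can transcribe unjoined Igh sequence. V use across a library gives the V segments present in its RNA. Counts per gene do not tell apart clones that use the same segment, or joined from unjoined segments.

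Some of the V segments that led a library are shown first, since the comparison of V use turns on such segments. Coordinates in the gene table equalled those of GENCODE M21 (GRCm38) for 264 of 264 members. Each line gives the last 300 bases of the spliced segment in GENCODE M21, 5′ to 3′, and capitals mark the motif TACTGT, or in its place TTCTGT or else TACTGC or also TATTGT, which holds the codon of the conserved second cysteine. A motif of this kind was found on the transcript strand within the last 50 bases of 202 of the 218 V segments.
Ighv1-82: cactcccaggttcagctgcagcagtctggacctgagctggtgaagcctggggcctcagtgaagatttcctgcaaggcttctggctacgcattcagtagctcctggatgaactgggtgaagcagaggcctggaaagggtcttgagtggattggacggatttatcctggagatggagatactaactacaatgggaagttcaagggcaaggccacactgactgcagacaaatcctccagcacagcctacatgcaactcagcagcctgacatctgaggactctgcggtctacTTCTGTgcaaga
Ighv1-9: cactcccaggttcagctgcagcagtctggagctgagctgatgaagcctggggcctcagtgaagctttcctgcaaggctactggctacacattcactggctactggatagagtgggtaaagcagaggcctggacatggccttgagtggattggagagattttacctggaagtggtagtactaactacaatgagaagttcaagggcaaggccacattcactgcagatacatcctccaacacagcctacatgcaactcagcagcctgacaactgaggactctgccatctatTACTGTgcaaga
Ighv6-3: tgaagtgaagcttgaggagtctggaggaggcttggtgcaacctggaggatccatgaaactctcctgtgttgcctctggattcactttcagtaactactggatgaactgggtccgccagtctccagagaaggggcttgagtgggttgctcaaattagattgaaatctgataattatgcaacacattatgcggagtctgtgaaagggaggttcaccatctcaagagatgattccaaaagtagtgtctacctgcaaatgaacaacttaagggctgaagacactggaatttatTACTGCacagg
Igkv3-4: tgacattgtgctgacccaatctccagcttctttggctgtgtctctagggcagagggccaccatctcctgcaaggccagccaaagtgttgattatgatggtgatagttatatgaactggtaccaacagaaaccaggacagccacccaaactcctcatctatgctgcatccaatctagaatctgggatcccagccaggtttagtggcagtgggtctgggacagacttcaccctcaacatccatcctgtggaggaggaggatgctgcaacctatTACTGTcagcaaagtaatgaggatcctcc
Igkv8-21: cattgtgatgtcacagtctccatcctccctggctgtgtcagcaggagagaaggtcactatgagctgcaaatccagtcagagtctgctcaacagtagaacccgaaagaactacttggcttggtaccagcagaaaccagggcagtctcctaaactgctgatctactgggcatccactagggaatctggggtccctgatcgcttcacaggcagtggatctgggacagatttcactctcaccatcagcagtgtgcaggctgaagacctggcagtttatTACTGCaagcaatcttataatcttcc
Iglv1: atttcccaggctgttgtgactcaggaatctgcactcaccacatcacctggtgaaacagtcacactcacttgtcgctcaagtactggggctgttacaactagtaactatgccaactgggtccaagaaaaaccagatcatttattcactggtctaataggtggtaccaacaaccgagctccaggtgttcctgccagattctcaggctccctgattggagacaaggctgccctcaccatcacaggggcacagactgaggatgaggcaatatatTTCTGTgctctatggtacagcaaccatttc

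Ighv1-82 (chr12:115952538-115953005, minus strand) and Ighv1-9 (chr12:114583569-114584002, minus strand) belong to the large Ighv1 family. Ighv6-3 lies at chr12:114391712-114392169 on the minus strand, Igkv3-4 at chr6:70671788-70672377 on the plus strand, Igkv8-21 at chr6:70314895-70315472 on the minus strand and Iglv1 at chr16:19085017-19085500 on the minus strand. V segments are close relatives of each other: over the 300 bases shown, Ighv1-82 matched Ighv1-80 at 96.0%, Iglv1 matched Iglv2 at 97.3% and Igkv3-4 matched Igkv3-3 at 93.7%. Of the 218 V segments, 86 shared at least 1 window of 100 bases with another immunoglobulin gene or pseudogene, and 5 shared over 50% of their windows. Those 5 took between 0% and 0.485% of the V reads of a library, and the counts of such near-identical segments are uncertain.

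The J segments are short, which limits how well they can be counted. They are shown because joined J sequence is part of the same exon as V, and capitals mark the codon start of the conserved tryptophan and glycine of heavy J (TGGGG) or phenylalanine and glycine of light J (TTCGG). On the transcript strand, TGGGG was found in 4 of 4 heavy J segments and TTCGG in 8 of 10 light J segments. Ighd3-2, the D segment with the most reads, is given with them.
Ighj1: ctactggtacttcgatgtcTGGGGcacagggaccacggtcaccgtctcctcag
Ighj2: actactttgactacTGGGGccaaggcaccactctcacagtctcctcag
Ighj3: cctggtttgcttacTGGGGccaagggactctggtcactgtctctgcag
Ighj4: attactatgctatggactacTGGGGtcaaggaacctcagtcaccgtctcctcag
Igkj1: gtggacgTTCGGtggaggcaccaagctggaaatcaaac
Iglj1: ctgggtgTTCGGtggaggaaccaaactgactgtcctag
Ighd3-2: agacagctcaggctac

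Immunoglobulin RNA was far lower in the KO libraries. All 264 genes together took 0.427%, 2.08% and 1.16% of the reads of WT 1, WT 2 and WT 3, and 0.0326%, 0.0196% and 0.00652% of those of KO 1, KO 2 and KO 3. On the scale of reads per 1000000 recovered reads (RPM), the WT total was 12211 ± 8260 (SD, n = 3) and the KO total 196 ± 130 (SD, n = 3). The WT mean was 62.4-fold the KO mean, or 40.6-fold without WT 2, and the lowest WT library was 13.1-fold above the highest KO library. In BM RNA, fewer cells of a type and less RNA per cell cannot be told apart.

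Of the class totals, Ighv (heavy V segments) came to 8232, 2284 and 16808 reads in WT 1 to WT 3 and to 380, 288 and 114 in KO 1 to KO 3. Igkv (kappa V segments) came to 9765, 10326 and 21534 reads in WT and to 407, 98 and 91 in KO. Iglv (lambda V segments) came to 405, 1739 and 569 reads in WT and to 39, 205 and 1 in KO. The 2 groups overlapped in none of these 3 totals. The ratio of the mean RPM, WT over KO, was 33.5 for Ighv, 67.7 for Igkv and 8.80 for Iglv. Without WT 2 it was 46.7 for Ighv, 80.01 for Igkv and 5.36 for Iglv, and for Iglv the lowest WT library was only 1.68-fold above KO 2.

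**Figure D1:**
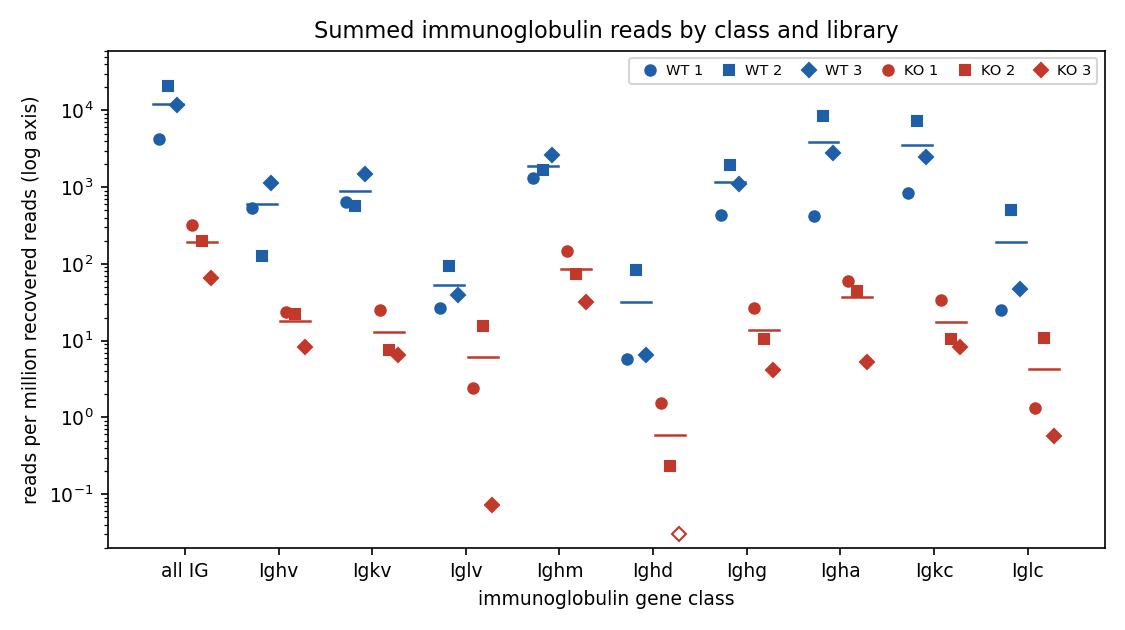
Summed RPM of each immunoglobulin class (log axis) in the 3 WT and 3 KO libraries, with a horizontal line at each group mean; the open symbol marks KO 3, in which Ighd had 0 reads, and is drawn near the base of the axis. The groups do not overlap in the classes drawn, and the WT mean of all members is 62.4-fold the KO mean.

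Ighm, the constant gene of IgM, was the heavy chain constant gene with the highest FPKM in each KO library. It had 20257, 30556 and 38070 reads in WT 1 to WT 3 and 2391, 953 and 445 in KO 1 to KO 3, and the groups did not overlap. Its log2 fold change, KO against WT on the scale of log2(FPKM + 1), was -5.03 ± 0.61 (SE; adjusted p = 0.00209 by limma). Ighm lies at chr12:113418558-113422730, beside the heavy J segments. Ighd, the constant gene of IgD made by alternative splicing with Ighm, had 89, 1524 and 95 reads in WT and 25, 3 and 0 in KO, and did not pass the test (log2 fold change -3.10, adjusted p = 0.0856 by limma). Without WT 2, which held most Ighd reads, it passed.

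Constant genes of switched isotypes were lower as well. Igha, the constant gene of IgA of mucosal plasma cells, had 6523, 153949 and 40261 reads in WT and 970, 581 and 73 in KO, a log2 fold change of -6.61 ± 1.35 (SE; adjusted p = 0.0137 by limma). WT 2 was the highest library. Without KO 3 the adjusted p of Igha was 0.0563, the highest over its alternatives at the threshold of 0.05, where the lowest was 0.00191. The 4 Ighg genes, which encode the IgG subclasses, summed to 6649, 35572 and 15989 reads in WT and to 430, 139 and 58 in KO, and each passed the test. Their log2 fold changes were -6.27 for Ighg2b, -6.02 for Ighg2c, -4.72 for Ighg1 and -3.96 for Ighg3, with adjusted p of 0.00285, 0.00287, 0.0173 and 0.00229 by limma. Leaving out any of the 3 KO libraries took Ighg1 over the threshold, with an adjusted p of up to 0.0702. Ighe, the constant gene of IgE, had 0, 24 and 5 reads in WT and 0 in each KO library. At 3 reads over the summed KO libraries, its WT mean was at least 7.91-fold higher, and the groups overlapped at 0.

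Igkc, the single constant gene of kappa light chains (chr6:70726435-70726966, plus strand), had the largest fall among the members that passed. It had 13030, 132940 and 35715 reads in WT 1 to WT 3 and 535, 139 and 115 in KO 1 to KO 3. The lowest WT library was 25.4-fold above the highest KO library. It fell by 7.77 ± 1.03 (SE) on the log2 scale (adjusted p = 0.00285 by limma). Of the lambda constant genes, Iglc2 passed (log2 fold change -5.28, adjusted p = 0.00873 by limma), whereas Iglc1 (-4.67, adjusted p = 0.0906) and Iglc3 (-3.61, adjusted p = 0.103) did not and Iglc4 was under the filter. Iglc3 passed without WT 2. Iglc1 had 121, 6045 and 350 reads in WT and 11, 132 and 3 in KO, so KO 2 lay above WT 1 once library size was taken into account, at an FPKM of 18.5 compared with 17.3.

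The make-up of the constant genes varied between libraries within each group. Ighm took 60.4%, 13.8% and 40.3% of the heavy chain constant reads of WT 1 to WT 3 and 62.7%, 56.9% and 77.3% of those of KO 1 to KO 3. Igha took 19.5%, 69.5% and 42.6% in WT and 25.4%, 34.7% and 12.7% in KO. The groups overlapped in both shares, while the exact binomial 95% interval of a single library was narrow (73.6% to 80.6% for Ighm in KO 3, the shallowest). The Ighg genes took 19.8%, 16.1% and 16.9% in WT and 11.3%, 8.29% and 10.1% in KO, without overlap. These intervals cover counting error only.

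The balance of heavy and light constants also differed. There were 1.55, 0.230 and 1.07 Ighm reads per Igkc read in WT 1 to WT 3 and 4.47, 6.86 and 3.87 in KO 1 to KO 3. The groups did not overlap in this ratio, and the KO libraries were the higher. Ighm is longer than Igkc, so the ratio compares libraries and not the levels of the 2 genes.

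Lambda use stood out in KO 2. Lambda constants took 2.88%, 6.55% and 1.89% of the light chain constant reads of WT 1 to WT 3, and 3.78%, 50.7% and 6.50% of those of KO 1 to KO 3. The exact binomial 95% interval in KO 2 was 44.7% to 56.7%, on 282 reads. In the same library Iglv1 held 195 of 205 lambda V reads, Iglc1 held 132 of 143 lambda constant reads, and the 5 lambda J reads all fell in Iglj1. These 3 genes form a V-J-C set of lambda 1 chains. KO 2 was likewise led by 1 heavy V segment, Ighv1-82, and reads of a bulk library do not pair a heavy with a light chain.

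**Figure D2:**
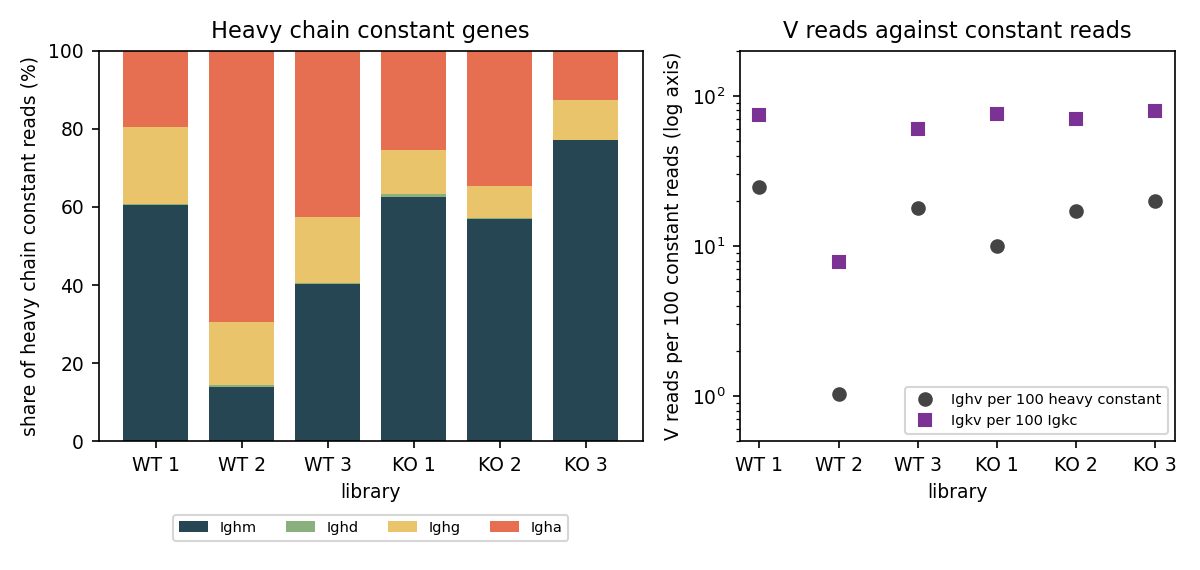
Left, share of heavy chain constant reads (%) taken by Ighm, Ighd, the 4 Ighg genes and Igha in each library. Right, V reads per 100 constant reads (log axis) for the heavy and kappa chains. Igha holds 69.5% in WT 2, and WT 2 lies far below the other 5 libraries in both V ratios.

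The number of V reads for a given number of constant reads set WT 2 apart from all other libraries. Per 100 Igkc reads there were 74.9, 7.77 and 60.3 Igkv reads in WT 1 to WT 3 and 76.1, 70.5 and 79.1 in KO 1 to KO 3. Per 100 heavy constant reads there were 24.6, 1.03 and 17.8 Ighv reads in WT and 9.96, 17.2 and 19.8 in KO. The 5 libraries other than WT 2 thus held to a narrow range in the kappa chain, although their Igkc reads ranged from 115 to 35715. WT 2 is also the library with the raised share of short genes, and what part that has in its few V reads was not tested. Its constant gene totals and its V totals therefore rank it differently: it was the highest library in Igkc and the lowest WT library in Ighv.

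Gene by gene, 136 of the 264 members reached an FPKM of 1 in 3 or more libraries and were tested, among 13393 genes. Of these 136, 103 were lower and 0 higher in KO at an adjusted p under 0.05 (limma), where 13.3% of all tested genes were lower and 13.1% higher. The groups did not overlap, with KO the lower, in 119 members, compared with 22.9% of all tested genes, and with KO the higher in 0 members, compared with 26.2%. The median log2 fold change was -3.75 over the tested members and 0.086 over all tested genes. The other 128 members were under the filter, including the 19 D segments. A segment silent in KO could pass the filter only through WT, so the counts describe the tested members and are no sample of all 264.

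The calls came from each class of gene. In the constant genes 8 of 11 tested were lower, in Igkv 51 of 60, in Ighv 36 of 53, in Iglv 2 of 3 and in J segments 6 of 9. The largest falls after Igkc were in Igkv3-4, Igha, Igkj1 and Igkv10-96, the last with a log2 fold change of -6.45 and an adjusted p of 0.00474 (limma). No member passed as higher by limma in any of the 19 alternatives run, voom on the recovered reads among them, and 0 were higher at an unadjusted p under 0.05. Only 1 tested member, Ighv6-4, had a fold change above 0 (log2 0.53, adjusted p = 0.307), with 4, 0 and 7 reads in WT and 12, 5 and 7 in KO.

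**Figure D3:**
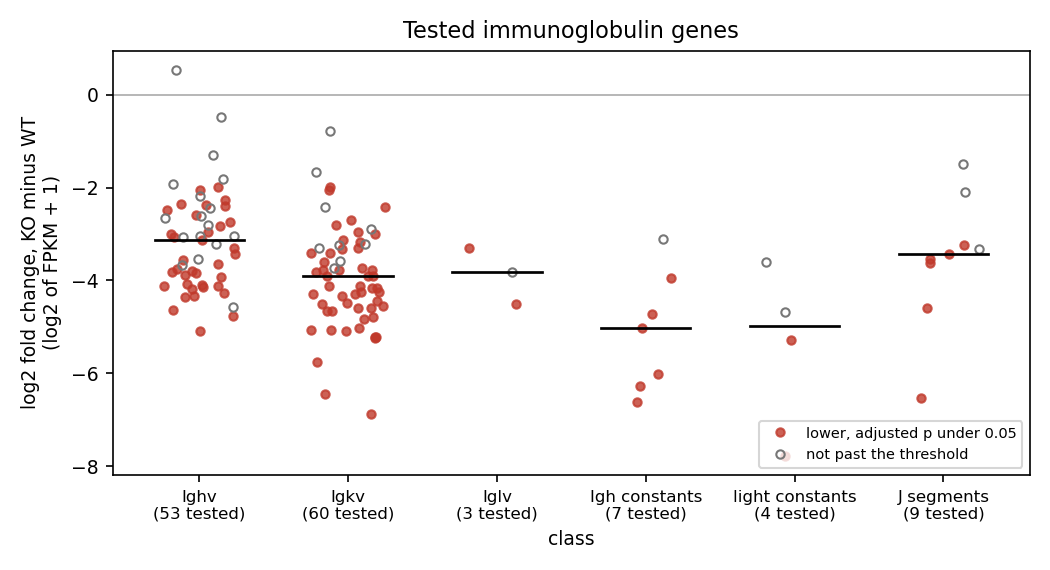
Log2 fold change, KO minus WT, of log2(FPKM + 1) for each of the 136 tested members, by class; filled symbols passed the adjusted p of 0.05 by limma, open symbols did not, and black lines mark class medians. Points are spread sideways for legibility. All lie below 0 except 1 Ighv segment at 0.53.

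The largest fall of a V segment that passed was in kappa. Igkv3-4 had 2508, 391 and 845 reads in WT 1 to WT 3 and 2, 0 and 12 in KO 1 to KO 3, a log2 fold change of -6.87 ± 0.68 (SE; adjusted p = 0.00105 by limma). Igkv10-96 had 301, 710 and 2779 reads in WT and 33, 0 and 1 in KO. Igkv8-21 had 50, 370 and 2922 reads in WT and 14, 14 and 1 in KO, and its call (log2 fold change -5.02, adjusted p = 0.0373 by limma) was lost in 10 of 19 alternatives, among them those without WT 3 and without any KO library. WT 1 was the highest library for Igkv3-4 and WT 3 for the other 2 segments.

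The heavy V segments were as uneven. Ighv1-82 had 70, 98 and 460 reads in WT and 4, 135 and 5 in KO, and did not pass (log2 fold change -2.81, adjusted p = 0.136 by limma) with KO 2 among the WT libraries in FPKM. Without KO 2 it passed. Ighv1-9 had 1297, 49 and 448 reads in WT and 35, 3 and 19 in KO (log2 fold change -4.19, adjusted p = 0.0332 by limma), a call lost in 9 of 19 alternatives, among them those without WT 1, without WT 3 and without any KO library. Ighv6-3 had 119, 27 and 2547 reads in WT and 13, 24 and 8 in KO and did not pass (-3.68, adjusted p = 0.113 by limma). Without WT 2, where it had 27 reads, Ighv6-3 passed.

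All 3 lambda V segments were tested. Iglv1 had 177, 1467 and 379 reads in WT 1 to WT 3 and 35, 195 and 1 in KO 1 to KO 3, and did not pass (log2 fold change -3.82, adjusted p = 0.0874 by limma) with KO 2 the highest KO library, and it passed without KO 2. Iglv2, its near copy, had 126, 146 and 171 reads in WT and 4, 2 and 0 in KO, a log2 fold change of -4.51 ± 0.29 (SE; adjusted p = 0.000298 by limma). Iglv3 had 102, 126 and 19 reads in WT and 0, 8 and 0 in KO (-3.31, adjusted p = 0.0209 by limma), and its call was lost without WT 1, KO 1 or KO 3. Iglv1 led each library, from 43.7% of lambda V reads in WT 1 to 95.1% in KO 2, while KO 3 had a single lambda V read.

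J segments were counted at the edge of detection, since 1 read in the 38 bases of Igkj1 was worth an FPKM of 1.41 to 2.24. Igkj1 had 51, 35 and 65 reads in WT and 0 in each KO library, so it was at least 46.2-fold higher in WT at a floor of 3 reads over the summed KO libraries. The 5 Igkj segments together had 77, 67 and 151 reads in WT and 3, 0 and 0 in KO, without overlap. The 4 Ighj segments had 32, 3 and 127 reads in WT and 8, 0 and 4 in KO, and the groups overlapped through WT 2. Of these Ighj4 had the most reads, 19, 0 and 49 in WT and 3, 0 and 3 in KO. Iglj1 had 1, 119 and 7 reads in WT and 0, 5 and 0 in KO. D segments were nearly silent, with 3, 19 and 7 reads in WT and 1, 0 and 0 in KO, and 18 of the 19 in WT 2 fell in Ighd3-2.

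Diversity of V use was read from the effective number of segments, the number of equally used segments that would give the same Shannon entropy. For Ighv it was 26.4, 48.5 and 30.0 in WT 1 to WT 3 and 32.2, 10.8 and 26.0 in KO 1 to KO 3. For Igkv it was 22.5, 49.8 and 25.8 in WT and 23.7, 18.4 and 22.7 in KO. The means were 34.96 ± 11.8 and 23.0 ± 10.99 (SD, n = 3) for Ighv and 32.7 ± 14.9 and 21.6 ± 2.85 (SD, n = 3) for Igkv, and the groups overlapped in both. The difference of the means was -11.98 for Ighv, or -5.24 without WT 2 and -5.90 without KO 2. For Igkv it was -11.1, or -2.58 without WT 2. The effective number is not corrected for depth, which was lower in KO. An inverse Simpson number corrected for depth, based on how often a pair of reads shares a segment, was also taken. For Ighv it was 13.9, 37.3 and 16.3 in WT and 23.1, 4.25 and 20.3 in KO. For Igkv it was 10.5, 36.4 and 13.7 in WT and 18.2, 16.1 and 19.6 in KO. In Igkv each KO library was thus more even than WT 1 and WT 3 by this measure, and less even than WT 2. WT 2 was the most even library, and it was also the library with the fewest V reads for its constant reads. KO 2 was the least even in Ighv, with Ighv1-82 at 46.9% of its 288 reads (exact binomial 95% interval 41.0% to 52.8%).

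Counts of detected segments did separate the groups, and depth moved with them. At least 3 reads were found for 73, 74 and 86 Ighv segments in WT and for 35, 18 and 14 in KO, and for 67, 80 and 78 Igkv segments in WT and 25, 10 and 11 in KO. After thinning each library to 114 Ighv reads, the total of KO 3, the expected number was 33.8, 44.97 and 36.0 in WT and 38.1, 27.3 and 39.0 in KO. Thinned to 91 Igkv reads it was 29.1, 41.7 and 30.4 in WT and 27.1, 27.0 and 33.0 in KO. The groups overlapped at equal depth in both classes. A narrower set of Ighv or Igkv segments in KO as a group was thus not detectable at this depth. For the 3 Iglv segments the effective number was 2.92, 1.72 and 2.11 in WT, and lower in KO 1 and KO 2, at 1.39 and 1.25. KO 1 had 39 lambda V reads. KO 3 had 1, which fixes its effective number at 1.00 and its Iglv1 share at 100%. Iglv1 held 43.7%, 84.4% and 66.6% of lambda V reads in WT, and 89.7% and 95.1% in KO 1 and KO 2. The exact binomial 95% interval of KO 1, 75.8% to 97.1%, held the share of WT 2. KO 3 left no depth at which the 6 libraries could be compared.

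**Figure D4:**
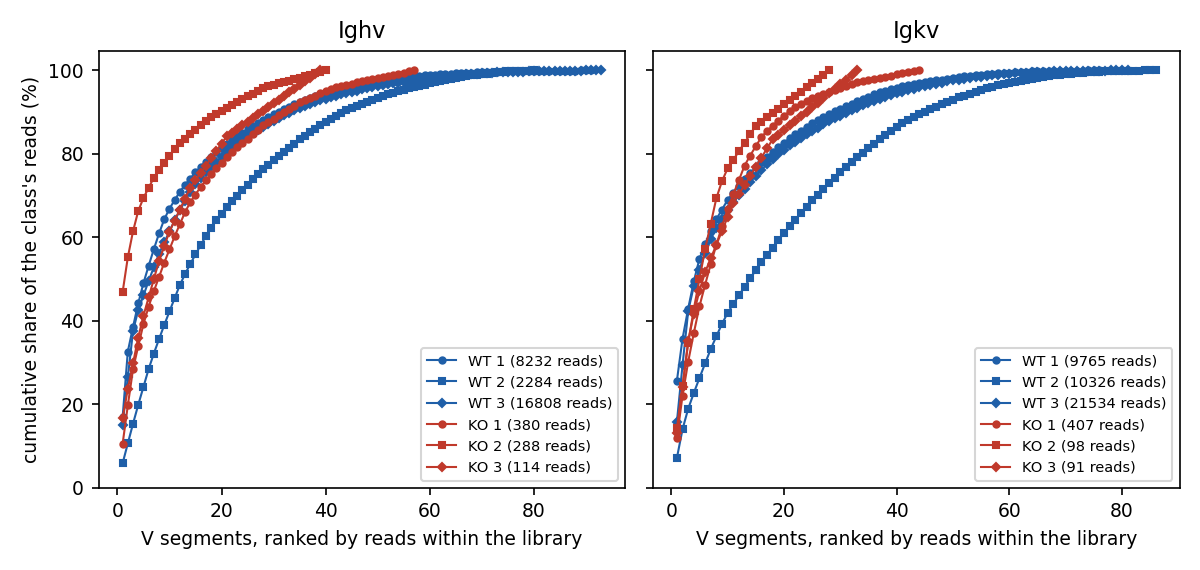
Cumulative share of V reads (%) against the rank of the V segment within its library, for Ighv (left) and Igkv (right); the number of reads behind each curve is in the legend. KO 2 starts at 46.9% in Ighv, WT 2 rises most slowly in both classes, and the other curves run close together.

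The identity of the leading segments differed from library to library. The leading Ighv segment was Ighv3-6, Ighv7-3 and Ighv6-3 in WT 1 to WT 3, and Ighv6-6, Ighv1-82 and Ighv1-9 in KO 1 to KO 3. The leading Igkv segment was Igkv3-4, Igkv1-117 and Igkv3-2 in WT, and Igkv16-104, Igkv8-21 and Igkv3-4 in KO. Leading segments took 5.87% to 16.9% of Ighv reads in WT and 10.5% to 46.9% in KO, and 7.19% to 25.7% of Igkv reads in WT and 12.04% to 14.3% in KO. Of these leaders, Ighv3-6 (log2 fold change -5.09), Ighv7-3 (-3.88), Igkv1-117 (-5.22), Igkv3-2 (-5.76) and Igkv16-104 (-3.18) were lower in KO, with adjusted p between 0.00241 and 0.0305 by limma. The call of Igkv16-104 was lost in 9 of 19 alternatives, among them those without WT 1, WT 3, KO 2 or KO 3. Ighv6-6 did not pass (-1.82, adjusted p = 0.0793 by limma), and passed without WT 2 or without KO 1.

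V use was compared between libraries with the Morisita index, which is near 1 for the same proportions and near 0 for none shared. The closest pair was WT 1 and KO 3, at 0.791 for Ighv and 0.869 for Igkv, across the groups. Within groups it was 0.293 to 0.462 among WT and 0.120 to 0.754 among KO for Ighv, and 0.288 to 0.535 among WT and 0.357 to 0.416 among KO for Igkv. The 5 leading kappa segments of WT 1 held 54.9% of its Igkv reads and 41.8% of those of KO 3, compared with 5.10% to 7.96% in the other 4 libraries. Its 5 leading heavy segments held 49.0% of Ighv reads in WT 1, 28.1% in KO 3 and 3.13% to 15.3% elsewhere. KO 2 shared least with the others in Ighv, with an index of 0.093 to 0.251.

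Shares of other genes were compared for the same pair of libraries, on few reads in KO 3. Ighg3 made up 17.7% of the Ighg reads of WT 1 and 13.8% of those of KO 3, where it had 8 reads, compared with 0.233% to 4.25% in the other 4. Ighv11-2 and Igkv14-126, known as the pair that binds phosphatidylcholine in B-1 cells, took 4.86% and 5.43% of Ighv and Igkv reads in WT 1, and 1.75% and 3.30% in KO 3, on 2 and 3 reads. In the other 4 libraries they took 0% to 0.789% of Ighv reads and 0% to 1.02% of Igkv reads. The Ighv11 family had 3 reads in KO 1 and 2 in KO 3, so Ighv11-2 does not set KO 3 apart at this depth. The 909 immunoglobulin reads of KO 3 came to 1.39% of the 65450 of WT 1. The source of this likeness was not tested. Without KO 3 the number of members called lower was 78, compared with 82 without KO 2 and 89 without KO 1. Calls lower over all tested genes also fell, from 1785 to 1059, 996 and 1082 in these 3 fits.

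**Figure D5:**
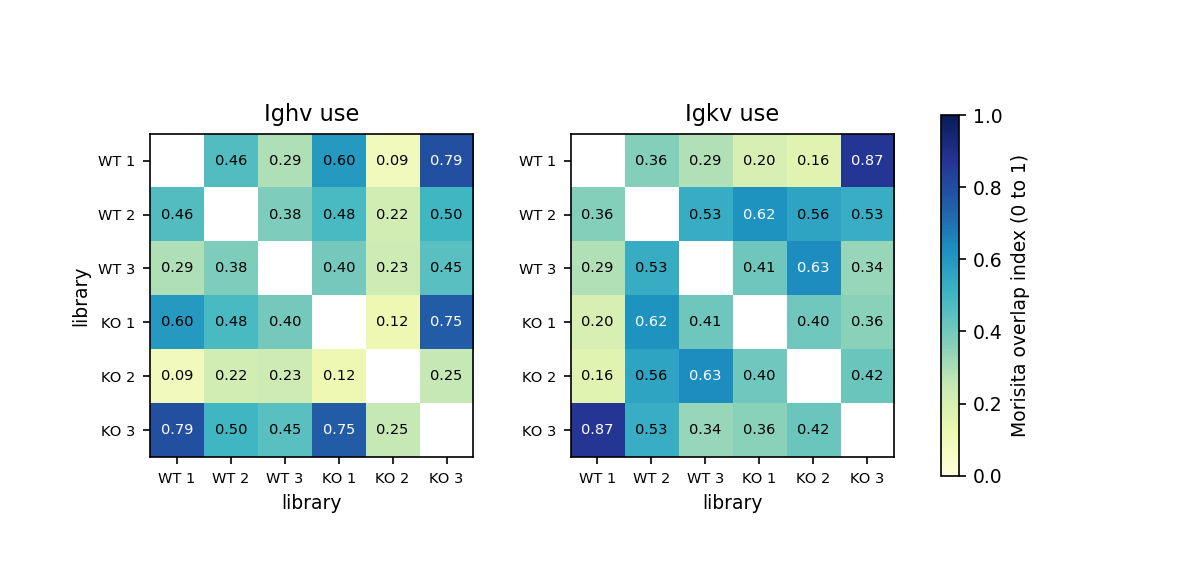
Morisita index of V use between each pair of libraries, for Ighv (left) and Igkv (right), on a colour scale from 0 to 1. WT 1 and KO 3 form the highest pair in both panels, at 0.791 and 0.869, and KO 2 has the lowest values in Ighv.

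Ighv1, the largest heavy V family with 53 members, led in each library and took 55.5%, 58.7% and 62.8% of Ighv reads in WT and 44.5%, 74.3% and 52.6% in KO. The Ighv6 family took 2.58%, 2.15% and 15.6% in WT and 18.2%, 12.5% and 20.2% in KO, and the groups overlapped. Of kappa families Igkv3 took 43.2%, 13.6% and 21.5% in WT and 13.0%, 14.3% and 30.8% in KO. By position, the third of Ighv segments farthest from the J segments took 32.8%, 45.9% and 43.1% of Ighv reads in WT and 26.8%, 65.6% and 24.6% in KO. Ighv1-82, one of the most distal segments, made up most of the distal reads of KO 2.

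Markers of plasma cells and B cells, the cells that carry immunoglobulin, passed the test only in part. Of the plasma cell list, 5 of 8 tested genes were lower and 0 higher. The tested genes that did not pass were Sdc1, Creld2 and Mzb1, with log2 fold changes of 0.486, -0.905 and -0.840. Their adjusted p was 0.262 to 0.532 by limma, and the groups overlapped in the FPKM of each. Over all tested genes 13.3% were lower and 13.1% higher. The summed FPKM of the list was 199 to 659 in WT and 65.2 to 71.3 in KO, with none of the 10 at 0 in every KO library. Jchain, given below, was the largest part of this sum in each WT library but in no KO library. The count of lower plasma cell markers was 3 when WT 1 or any KO library was left out. Jchain, which joins IgM and IgA units into polymers, had an FPKM of 91.1, 383 and 286 in WT 1 to WT 3 and 4.88, 3.23 and 0.913 in KO 1 to KO 3, a log2 fold change of -5.90 ± 0.65 (SE; adjusted p = 0.00154 by limma). In the list of B cell markers, 2 of 9 tested genes were lower, Cd22 and Cd37, and 0 higher, beside 13.3% lower over all tested genes. Its summed FPKM was 84.6, 1738 and 88.9 in WT and 57.1, 39.0 and 42.9 in KO, and Fcmr was at 0 in every KO library. Leaving out WT 2 gave 6 lower and 1 higher, and leaving out any KO library gave 0. Calls over all tested genes moved as well, from 1785 lower and 1754 higher to 3383 and 3584 without WT 2. Without a KO library they fell to between 996 and 1082 lower. Cd79a, a signal chain of the B cell receptor, had an FPKM of 4.54, 286 and 9.39 in WT and 0.737, 0.697 and 0.426 in KO (log2 fold change -3.98, adjusted p = 0.0845 by limma). WT 2 thus held most of the B cell marker RNA, and the part of these markers in the immunoglobulin totals was not tested.

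Of the lists for other lineages, that of neutrophils gave the most calls. Over all tested genes 13.3% were lower and 13.1% higher in KO. The 8 neutrophil markers were all lower in KO, at a summed FPKM of 6608 to 93615 in WT and 90.9 to 279 in KO. The 7 erythroid markers gave 0 calls by limma, although 3 were lower at an unadjusted p under 0.05 and 3 passed when WT 1 or WT 2 was left out, at 138, 68057 and 529 in WT and 120, 64.3 and 10.2 in KO. T cell markers gave 1 higher and 1 lower of 11, or 4 higher and 4 lower without WT 2. Calls over all tested genes then rose as well, to 3584 higher and 3383 lower of 13393. The summed FPKM of the T cell markers was 1735 to 3863 in WT and 1643 to 2248 in KO. The part of any of these cells in the immunoglobulin result was not tested.

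Genes that signal from the B cell receptor were described from a list of 14, of which 13 were tested. In KO 5 were lower and 0 higher, where 13.3% of all tested genes were lower and 13.1% higher. The median log2 fold change of the list was -2.80, compared with 0.086 over all genes. Lyn, the kinase that phosphorylates the receptor, had an FPKM of 21.8 ± 12.1 (SD, n = 3) in WT and 0.324 ± 0.053 in KO, a log2 fold change of -3.93 (adjusted p = 0.00202 by limma). Plcg2, the phospholipase downstream, fell by 4.13 in log2 units, the kinase Btk by 2.94 and the adaptor Pik3ap1 by 2.79 (adjusted p by limma 0.00300, 0.0114 and 0.0129). The call of Btk was lost without KO 1 or KO 2, and that of Pik3ap1 without any KO library, with adjusted p of 0.0510 to 0.0577 by limma. Lyn, Plcg2, Btk and Pik3ap1 are also expressed in myeloid cells, and the neutrophil markers given above fell in the same libraries. The count rose to 8 when WT 2 was left out, and it was 2, 2 and 3 when KO 1, KO 2 and KO 3 were. Calls lower over all tested genes moved as well, from 1785 to 3383 without WT 2. They fell to 1082, 996 and 1059 without KO 1, KO 2 and KO 3.

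Of the genes that cut, join and mutate immunoglobulin segments, 13 were tested, and 6 were higher and 1 lower in KO. Over all tested genes 13.1% were higher and 13.3% lower. The median log2 fold change of the list was 1.14. Rag1 and Rag2, which cut at the segment borders in B and T cell precursors alike, had log2 fold changes of 8.11 and 3.04, with adjusted p by limma of 0.000244 and 0.00161. Rag2 had an FPKM of 0, 1.09 and 0 in WT and 9.52, 9.29 and 9.67 in KO. The joining genes Xrcc6 (Ku70) and Lig4 (DNA ligase IV) rose by 4.25 and 3.92 in log2 units (adjusted p by limma 0.00180 and 0.000271). Dntt, which adds bases at the joints, had an FPKM of 0.731, 26.6 and 0.121 in WT and 86.7, 85.0 and 100.8 in KO (log2 fold change 4.60, adjusted p = 0.0284 by limma). The call of Dntt was lost when any library but WT 2 was left out, with adjusted p of 0.0661 to 0.0988 by limma, and without WT 2 its log2 fold change was 6.04.

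The list of precursor B cell markers shares Rag1, Rag2 and Dntt with the list above. Of 6 tested, 4 were higher and 1 lower, where 13.1% of all tested genes were higher and 13.3% lower. The summed FPKM was 123, 383 and 29.7 in WT and 674, 757 and 657 in KO. Rag1 was the largest part of each KO sum, at 338.0 to 456.5. Vpreb1, Vpreb2 and Igll1 were under the filter and so not among the tested genes. Their FPKM in WT 2 was 48.38, 19.28 and 41.00. In WT 1 and WT 3 it was 0, except for 0.0298 of Igll1 in WT 3. In KO, Vpreb1 and Igll1 were at most 0.224 and 0.115, and Vpreb2 was at 0 in every library. Leaving out a library other than WT 2 gave 3 higher, and leaving out any KO library gave 0 lower. Over all tested genes, leaving out a library other than WT 2 gave 938 to 1489 higher, compared with 1754 in the main fit. Higher recombination genes and fewer immunoglobulin reads thus stood in the same libraries. T cell precursors express Rag1, Rag2 and Dntt as well, and the RNA of the cell types cannot be told apart here.

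Of 11 tested transcription factors that act at the immunoglobulin loci, 2 were lower and 0 higher, with a median log2 fold change of 0.37. Over all tested genes 13.3% were lower and 13.1% higher, so the count of 2 is not read as a result about the list. Spi1 (PU.1), which binds light chain enhancers and is also a myeloid factor, had an FPKM of 67.7, 160 and 13.3 in WT and 0.359, 0.448 and 0.323 in KO (log2 fold change -5.30, adjusted p = 0.00511 by limma). Pou2f2 (Oct-2), which binds the octamer of V promoters, had a log2 fold change of -2.11 (adjusted p = 0.0410 by limma), a call lost without any KO library (adjusted p of 0.119 to 0.131 by limma). Irf8 (-2.28, adjusted p = 0.0551 by limma) and Ctcf (1.08, adjusted p = 0.0833 by limma), which shapes the Igh locus, did not pass. Without WT 2 the list gave 4 lower and 4 higher, and without KO 1, KO 2 or KO 3 it gave 1 lower. Calls over all tested genes moved as well, from 1785 lower and 1754 higher to 3383 and 3584 without WT 2. Without KO 1, KO 2 or KO 3 they fell to 1082, 996 and 1059 lower.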

How the data were processed

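RNA of 6 BM libraries (3 WT, 3 KO) was compared. The authors deposited FPKM per gene; per the submitters' processing notes HISAT2 2.0.5, featureCounts 1.5.0-p3 and the builds GRCm38 and mm10 were used, and use of strand is not given in the sources used here. FPKM times gene length came out as whole reads (tolerance 0.01) in 100% of values, and totals of 13015823 to 18235095 reads per library set the precision, with intervals covering counting error only. The library size of the authors differed from these totals (ratio 0.827 to 1.55, highest in WT 2).

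Groups came from the genotype labels. The study used a model for counts; since FPKM was deposited, log2(FPKM + 1) was tested here with limma 3.58.1 in R 4.3.3 (lmFit, eBayes with trend, two-sided, Benjamini-Hochberg over 13393 genes that reached an FPKM of 1 in 3 or more libraries, threshold 0.05). This scale understates the change of low genes. Totals, ratios and diversity were described without a test; an exact permutation test of 3 against 3 cannot pass 0.05. Members, gene lists and tests were chosen with earlier results of these data known.

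Named members were the constant genes, the 3 V segments per class with the highest mean share in libraries of at least 20 class reads, the leading V of each library, the J and D segments with most reads, and the 5 largest falls and rises that passed; of the lists, up to 4 genes with the smallest p. Jchain, Cd79a, Cd22, Cd37, Dntt, Ighv6-4, Ighv11-2, Igkv14-126 and the other J segments were named for their role after their values were seen. Sdc1, Creld2, Mzb1, Vpreb1, Vpreb2 and Igll1 were also named after their values were seen. Sequences came from GENCODE M21. In none of the 15 pairs of libraries were the counts identical or alike within sampling noise (chi-square per gene of 21.1 or more).

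On simulated data for KO against WT (13393 genes), 56% of genes changed by 2 and 85% of those changed by 4 on the log2 scale were called, with 10 false calls. Genes were drawn independently, with the SD of each gene pooled over the groups. A library that stands apart as a whole, as WT 2 does, was not simulated, so these rates need not hold for the data. Tables and figures were made in Python 3.11.15 (NumPy 2.4.6, pandas 2.3.3, Matplotlib 3.10.9), and intervals with SciPy 1.17.1. Alternatives covered pseudocounts, filters, scalings, variance models, a replicate block, voom, denominators, diversity indices, thinning and leaving out each library.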

Additional observations from a re-analysis of the deposited data

How the results depend on the processing

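The count of members lower in KO was 103 in the main analysis, 76 at an adjusted p of 0.01 and up to 119 with array weights, and 0 members were higher in each alternative. Leaving out 1 library at a time gave 78 (without KO 3) to 118 (without WT 2). Rescaling to TPM moved the median of all tested genes from a log2 fold change of 0.086 to 0.86, and that of the members was then -4.21, with 97 lower. With at least 10 reads in 3 libraries, 97 of 113 were lower, and voom on reads gave 90. Replicate numbers only name libraries: deviations of same-numbered libraries correlated at 0.095, 0.105 and -0.153, and the replicate block gave 105 lower members. With the block the counts of the B cell receptor, recombination and transcription factor lists were 5 lower, 5 higher and 2 lower.

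Of the 29 named members tested, 0 reversed in any alternative, and 8 of the 20 past the threshold lost it in at least 1.

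Leaving out 1 library gave a mean log2 difference of -6.59 to -5.32 for the total of all members, -5.59 to -3.99 for Ighv, -6.85 to -5.80 for Igkv and -5.99 (without KO 2) to -2.89 (without KO 3) for Iglv, whose single read in KO 3 was set to a floor of 3 reads. The difference in detected Ighv segments was -55.3 at 3 reads, -42.7 at 1 read and -3.48 after thinning, and that in Igkv segments was -59.7, -46.0 and -4.69. Leaving out 1 library, the B cell receptor list gave 2 to 8 lower and 0 to 1 higher. The recombination list gave 1 to 2 lower and 4 to 7 higher, and the transcription factor list 1 to 4 lower and 0 to 4 higher. Over all tested genes the same fits gave 996 to 3383 lower and 938 to 3584 higher. Reads limit V use most in KO 3, with 114 Ighv and 91 Igkv reads.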
